A study of Mus musculus with 10 samples.

Results

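Alveolar type 1 (AT1) cells are the flat epithelial cells through which the lung exchanges gas, and 8 genes used as their markers were followed here in the methylome of whole mouse lung: Hopx, Ager, Pdpn, Aqp5, Cav1, Rtkn2, Clic5 and Emp2. Every window of 1000 bp (step 500 bp) that touched the RefSeq span of one of these genes on GRCm38, extended by 5 kb on each side, was taken, which gave 198 of the 446336 windows measured. Of the 198 windows, 188 had at least 20 CpG calls in every mouse, as did 421759 of all windows. The windows fell on Rtkn2 (53), Clic5 (43), Hopx (40), Pdpn (19), Ager (14), Aqp5 (14), Emp2 (12) and Cav1 (3). No window lay on the Ager gene itself, so its 14 windows describe the flanks, where Pbx2, Rnf5 and Agpat1 also lie. The gene spans are chr5:77086986-77115123 (Hopx, minus strand), chr17:34597460-34600937 (Ager, plus), chr4:143267409-143299564 (Pdpn, minus), chr15:99591028-99594829 (Aqp5, plus), chr6:17306335-17341328 (Cav1, plus), chr10:67979566-68058429 (Rtkn2, plus), chr17:44134762-44280169 (Clic5, plus) and chr16:10281749-10313968 (Emp2, minus). The flank of Aqp5 also holds Aqp6 and Gm34765. Neighbouring windows share bases, and 10 windows held exactly the calls of the next one, so they are not independent measurements.

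The samples were lung DNA of 10 female BALB/c mice, bought at 8 weeks of age, in 3 groups. Saline mice (n = 3) received saline. OVA mice (n = 3) were sensitized with 50 µg of ovalbumin (OVA) in an alum adjuvant, challenged with 25 µg into the nose, and given the vehicle by mouth, which makes an allergic lung inflammation. DSE mice (n = 4, called Herb in the labels) had the same OVA protocol and were given 200 mg/kg of DSE, an ethanol extract of Descurainia sophia seeds, so that the 7 OVA and DSE mice share the exposure. Methylation was measured with SureSelect Methyl-seq, in which probes capture chosen regions and bisulfite separates methylated from unmethylated cytosines. A percentage is the share of CpG calls in a window that were methylated. Summed over all windows, calls per mouse were 306656737 to 410836272, where a call in overlapping windows counts in each of them. A member window had a median of 507 to 679.5 calls per mouse. The label "lung" could not be checked against marker expression with methylation calls.

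AT1 cells cover most of the alveolar surface and arise from alveolar type 2 (AT2) cells, which make surfactant and act as their progenitors. Methylated CpGs are found over most of the genome, while start sites in CpG-rich DNA and enhancers in use are usually kept low, and the edges of such low stretches are often partly methylated. Hopx is an atypical homeodomain protein without DNA binding of its own, Ager is the receptor for advanced glycation end products, Pdpn is the membrane glycoprotein podoplanin, Aqp5 is a water channel, Cav1 is the coat protein of caveolae, Clic5 belongs to the chloride intracellular channel family, and Emp2 is a tetraspan membrane protein. Cav1 and Emp2 are also used by other lung cells. In DNA from whole lung, a different share of AT1 cells and a different methylation per cell cannot be told apart.

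Hopx has a pair of annotated start sites, and the DNA before them differs. The 250 bases before each are shown because the upstream start site was partly methylated and higher in OVA mice, while the downstream one stood beside an unmethylated stretch. They are given in the direction of transcription (minus strand of GRCm38, RefSeq), with every CpG in capitals. Before the upstream start, chr5:77115124-77115373, there were 8 CpGs. Before the downstream start, chr5:77095268-77095517, there were 18.
Hopx upstream start: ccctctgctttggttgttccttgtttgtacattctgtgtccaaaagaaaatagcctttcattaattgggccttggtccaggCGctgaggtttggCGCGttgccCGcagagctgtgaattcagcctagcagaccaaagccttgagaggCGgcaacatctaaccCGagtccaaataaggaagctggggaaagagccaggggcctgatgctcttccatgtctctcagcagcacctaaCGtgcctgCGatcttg
Hopx downstream start: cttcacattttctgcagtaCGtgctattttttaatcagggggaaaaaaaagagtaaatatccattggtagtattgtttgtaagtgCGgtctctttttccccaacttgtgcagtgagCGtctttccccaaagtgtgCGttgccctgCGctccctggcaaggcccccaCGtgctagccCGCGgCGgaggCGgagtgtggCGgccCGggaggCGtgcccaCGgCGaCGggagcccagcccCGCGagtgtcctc

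At Emp2 the start site was unmethylated and the intron next to it changed with exposure. The 250 bases before the start (chr16:10313969-10314218, minus strand, 11 CpGs) are shown beside the 300 bases of the called intronic window with the most CpGs (chr16:10312048-10312347, minus strand, 4 CpGs).
Emp2 start: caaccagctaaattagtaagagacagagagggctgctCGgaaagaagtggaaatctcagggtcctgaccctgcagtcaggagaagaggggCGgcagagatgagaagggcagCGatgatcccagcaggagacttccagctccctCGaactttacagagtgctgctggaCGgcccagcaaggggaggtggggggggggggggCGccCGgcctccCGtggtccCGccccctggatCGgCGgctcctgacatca
Emp2 intron: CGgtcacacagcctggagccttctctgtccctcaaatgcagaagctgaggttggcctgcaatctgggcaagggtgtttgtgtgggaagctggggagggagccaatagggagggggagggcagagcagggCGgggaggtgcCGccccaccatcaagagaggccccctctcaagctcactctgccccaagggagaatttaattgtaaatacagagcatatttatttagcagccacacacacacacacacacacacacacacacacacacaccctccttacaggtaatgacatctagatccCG

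A stretch chosen in the same way follows for the called intronic window of Clic5 with the largest difference (chr17:44243001-44243300, plus strand, 5 CpGs). The calls were summed per window, so they do not say which of these CpGs was methylated, and the reference is not the BALB/c genome.
Clic5 intron: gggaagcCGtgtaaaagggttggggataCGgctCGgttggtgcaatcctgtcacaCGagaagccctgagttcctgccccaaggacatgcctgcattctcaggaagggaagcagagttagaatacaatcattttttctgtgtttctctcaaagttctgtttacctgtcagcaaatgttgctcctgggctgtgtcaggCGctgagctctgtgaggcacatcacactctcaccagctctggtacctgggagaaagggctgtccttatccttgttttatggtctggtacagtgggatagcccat

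RefSeq promoters (250 bases before to 50 after a start) were at hand for 9 start sites of 7 members, all but Rtkn2. They held 4 to 46 CpGs with a median of 16, against a median of 7 over 32851 promoters. The letters GGAATG, bound by TEAD factors, were in 0 of the 9 on either strand and in 14.7% of all promoters. The letters CAAGTG, bound by NKX2-1, were in 1 of the 9, that of the downstream Hopx start, and in 13.6% of all.

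Each member had its own methylation profile, and the profiles of the 3 groups ran close together (plot of the windows along each gene). Start sites in CpG-rich DNA were low in the lower of the overlapping windows that hold them. In saline mice the window over the second start of Clic5 (chr17:44188501-44189500) was at 0.775% ± 0.110 (SD, n = 3), that over the Rtkn2 start (chr10:67979501-67980500) at 0.889% ± 0.227, that over the Emp2 start (chr16:10313501-10314500) at 1.61% ± 0.859, that over the Aqp5 start (chr15:99590501-99591500) at 2.81% ± 1.05, and that over the Pdpn start (chr4:143299001-143300000) at 3.82% ± 0.895. A wider measure pools the windows within 1000 bp of a start. On it the Hopx start sites were at 18.3% ± 1.95 (upstream) and 23.9% ± 2.29 (downstream), and the first start of Clic5 at 47.0% ± 1.34. The starts given above were lower on this measure too, from 2.14% ± 0.315 (second Clic5 start) to 10.6% ± 0.819 (Aqp5). The other window that holds the start was at 0.842% ± 0.0962 for the second Clic5 start and 4.23% ± 0.763 for Rtkn2. For Pdpn it was at 10.3% ± 0.631, and for Aqp5 at 47.8% ± 9.80, so the Aqp5 start was low in only one of them. Around the downstream Hopx start single windows ran from 1.05% ± 0.146 over the start (chr5:77094501-77095500, 70 CpGs) to 71.9% ± 2.38 before it (chr5:77096001-77097000, 13 CpGs). The average there is over 3 windows that do not overlap and leaves out the lowest one.

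**Figure D1:**
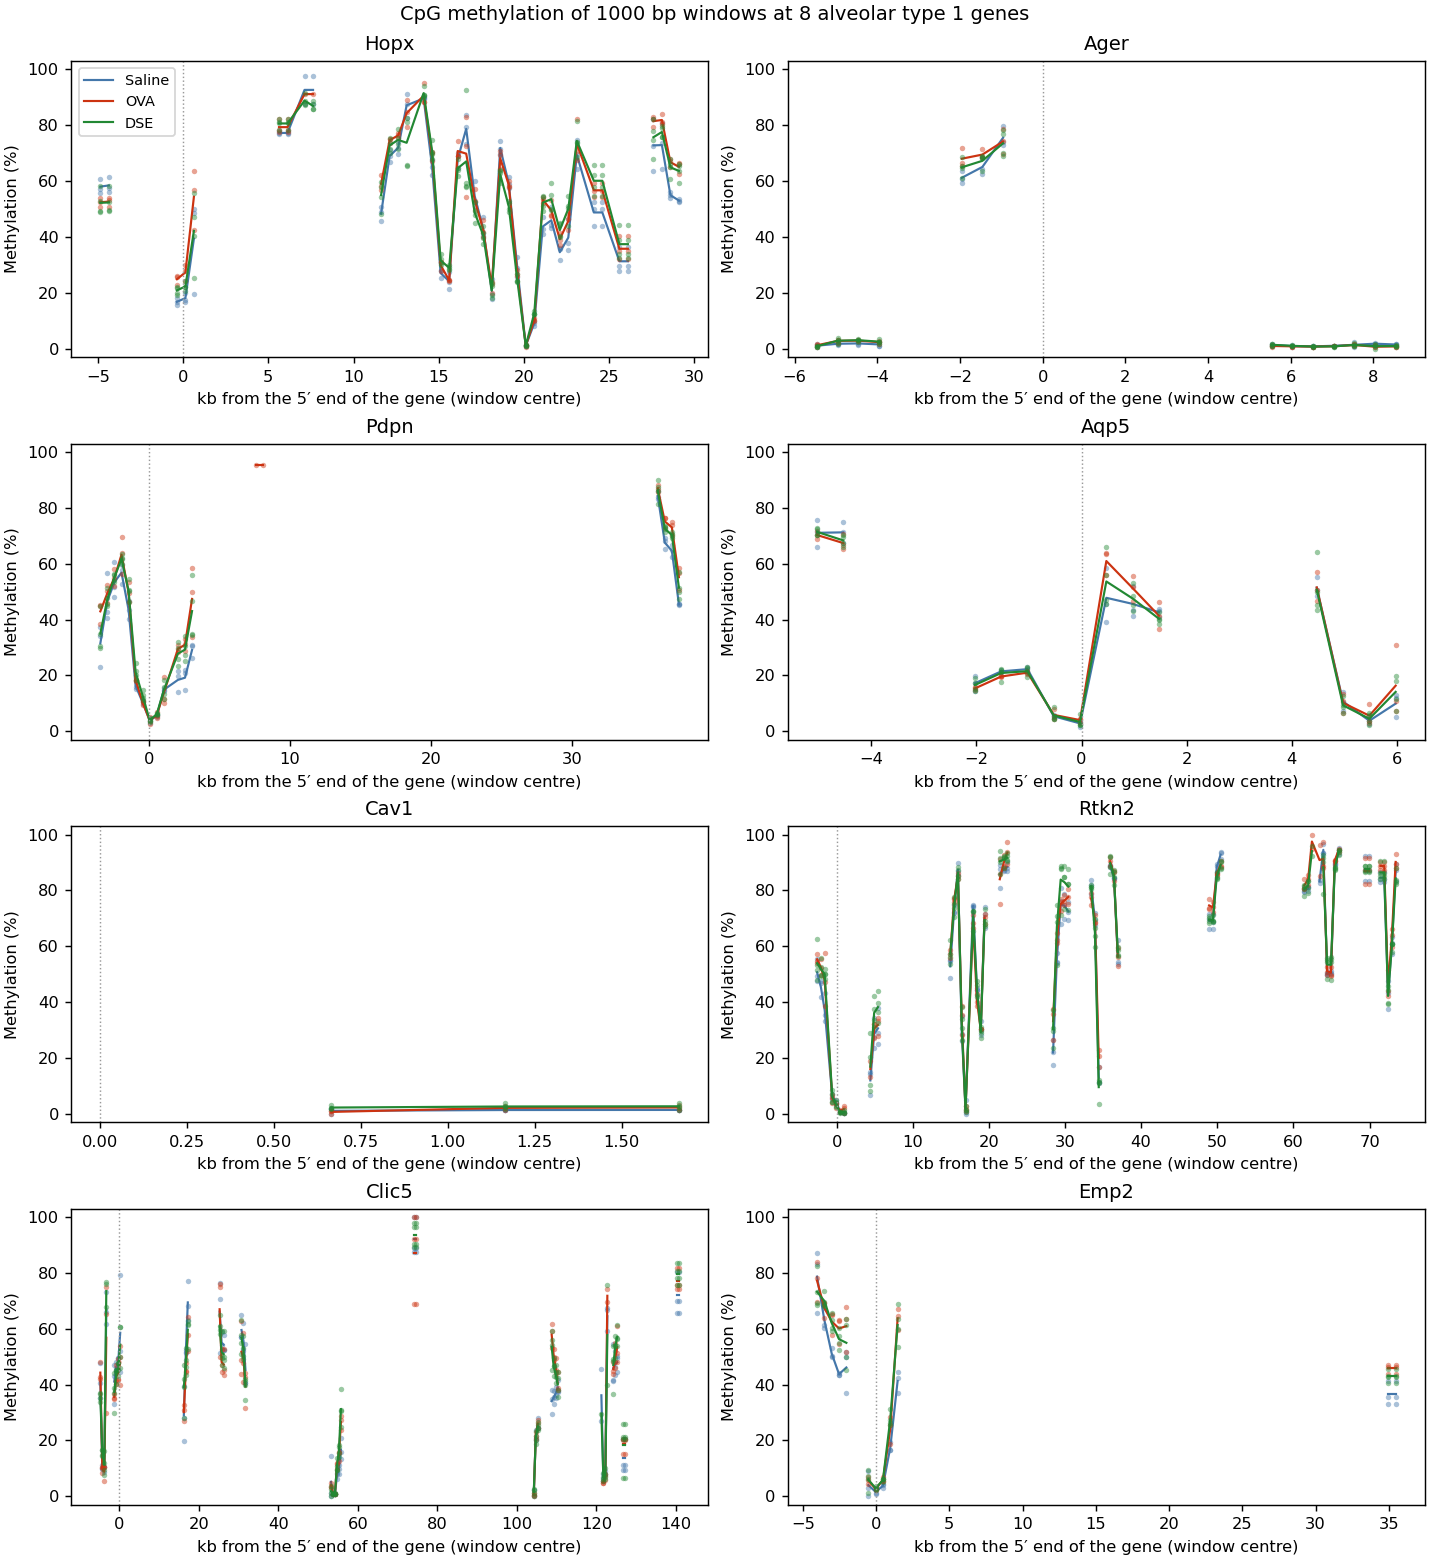
Methylation (%) of each window against the distance of its centre from the 5′ end of the gene (kb), for the 8 genes. Points are mice, lines join the group means of neighbouring windows (Saline n = 3, OVA n = 3, DSE n = 4). An example of groups apart is the window 1467 bp inside Emp2, where the means were 41.3% in saline, 63.7% in OVA and 61.3% in DSE mice.

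Over whole loci, pooled from windows that do not overlap, the order in saline mice was Rtkn2 (61.5% ± 1.07, 24 windows), Hopx (40.0% ± 1.47, 19), Pdpn (29.2% ± 0.593, 9), Emp2 (27.7% ± 1.91, 6), Clic5 (23.2% ± 0.502, 18), Aqp5 (19.4% ± 2.34, 7), Ager (10.9% ± 0.719, 7) and Cav1 (1.35% ± 0.0920, 1). Pdpn and Emp2 overlapped between mice, and the other neighbours in this order did not. Ager was measured in its flanks and Cav1 in a single window of this set, so these levels are not averages over whole genes.

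The first comparison asked what OVA exposure without treatment did to these loci. In OVA mice 14 of the 192 member windows tested were hyper methylated and 0 were hypo methylated against saline mice. The 14 windows formed 9 separate regions in 6 genes: Hopx, Pdpn, Aqp5, Rtkn2, Clic5 and Emp2. One of them is a Hopx window that the study listed on the same mice, and 13 are left without it. Calls came from a likelihood ratio test of the pooled calls, run over all windows with Benjamini-Hochberg adjustment, and needed an adjusted p under 0.01 together with 10 percentage points or more. This test does not carry the spread between mice, so the adjusted p of limma, which does, is given beside each called window, and it was under 0.05 in 6 of the 14. Beside the 0 windows called lower, 22 were lower at an unadjusted p under 0.05 in the likelihood ratio test and 5 in limma, where 0 were lower after adjustment.

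The 14 windows are 7.29% of those tested, where 4.75% of all 436201 windows tested were called higher, and 0% beside 2.56% called lower. With limma alone at an adjusted p under 0.05, 8 member windows (4.17%) were higher and 0 lower, beside 1.77% and 1.21% of all. All 3 OVA mice lay above all 3 saline mice in 52 member windows (27.1%, against 17.9% of all) and below them in 11 (5.73%, against 9.03%). The median difference was 1.47 points over the member windows and 0.732 points over all. The calls were in windows of intermediate level: 12 of 91 member windows between 10% and 60% were called higher (13.2%, against 9.78% of all such windows), 2 of 65 over 60% (3.08%, against 2.40%), and 0 of 36 under 10% (against 0.0308%).

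**Figure D2:**
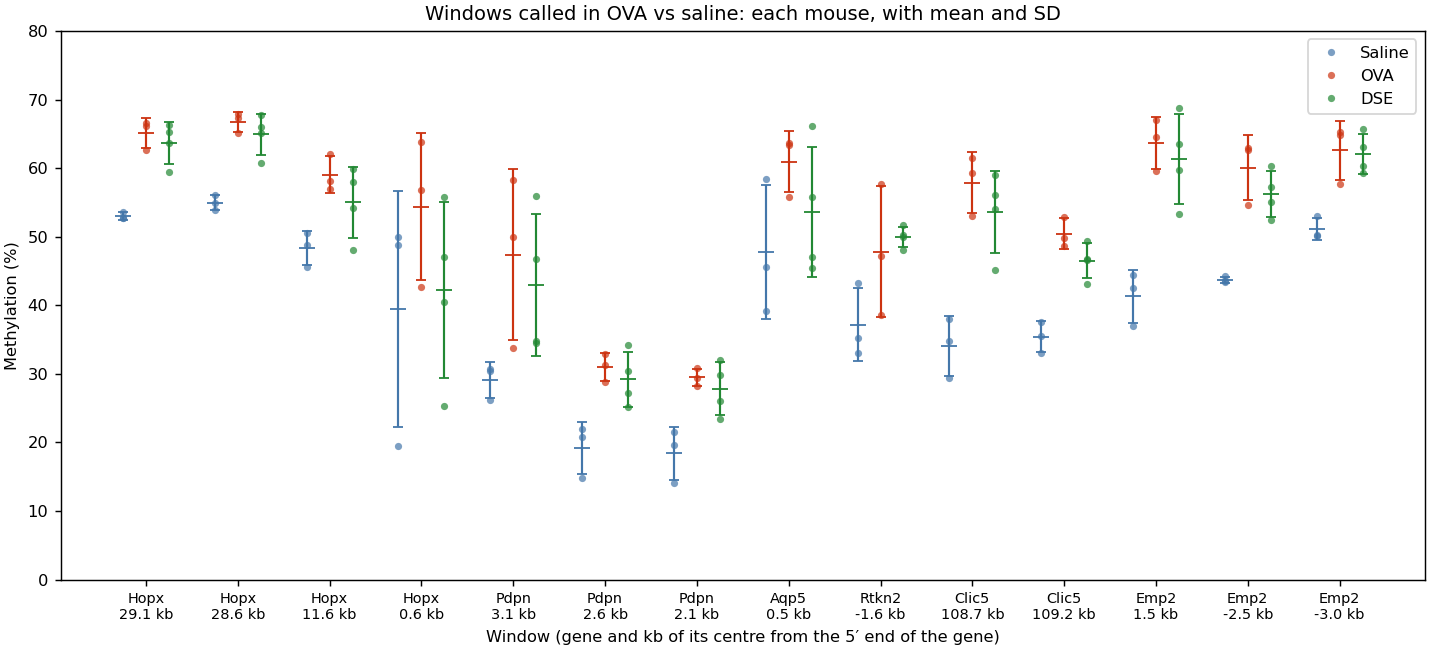
Methylation (%) of the 14 windows called in OVA against saline mice, with each mouse as a point and the group mean and SD as bars. The axis names the gene and the distance of the window's centre from the 5′ end of the gene (kb). In 11 of the 14 the OVA and saline mice do not overlap, and the exceptions are Hopx at 0.6 kb, Aqp5 and Rtkn2.

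Emp2 had the largest share of called windows, 3 of 12. In an intronic window (chr16:10312001-10313000, 11 CpGs) methylation was 42.5%, 37.0% and 44.4% in the saline mice, 59.6%, 67.03% and 64.6% in the OVA mice, and 53.3%, 63.5%, 68.8% and 59.8% in the DSE mice. All 7 exposed mice lay above the saline mice. OVA exceeded saline by 22.4 points (likelihood ratio test adjusted p = 1.96e-21, limma adjusted p = 0.0322). The lowest saline mouse rested on 262 calls, with a Wilson 95% interval of 31.4% to 43.0%, which covers counting error only.

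On the other side of the Emp2 start, 2532 bp upstream (chr16:10316001-10317000, 12 CpGs), the saline mice were at 44.3%, 43.6% and 43.4%, the OVA mice at 54.6%, 62.7% and 63.0%, and the DSE mice at 52.4%, 55.1%, 57.3% and 60.3%. Again no exposed mouse reached down to the saline mice, and OVA exceeded saline by 16.4 points (limma adjusted p = 0.0333). The overlapping window further upstream (chr16:10316501-10317500) differed by 11.6 points (limma adjusted p = 0.0650). Between these windows, those over the start were low in all groups: 1.61% ± 0.859 in saline, 2.65% ± 0.249 in OVA and 2.87% ± 0.509 in DSE mice (chr16:10313501-10314500). In the overlapping window, which also holds the start (chr16:10313001-10314000, 55 CpGs), the means were 3.78% ± 0.745, 5.87% ± 0.816 and 5.89% ± 0.440, with limma adjusted p = 0.0833 for OVA against saline. Past the 3′ end, a pair of windows with the same calls was at 36.7% ± 4.37, 45.8% ± 1.74 and 42.98% ± 2.08, with OVA 8.69 points above saline without overlap (limma adjusted p = 0.101).

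Clic5 had 2 called windows of 42 tested, and they overlap each other. In the intronic window chr17:44243001-44244000 (10 CpGs, 108738 bp from the 5′ end) the saline mice were at 34.8%, 38.0% and 29.4%, the OVA mice at 61.5%, 53.0% and 59.3%, and the DSE mice at 45.1%, 56.1%, 54.1% and 59.1%. This was the largest difference of any member window, 24.0 points for OVA against saline (likelihood ratio test adjusted p = 1.91e-09, limma adjusted p = 0.0283), with no overlap. The next window (chr17:44243501-44244500), with at least 1014 calls per mouse, was at 35.4% ± 2.24 in saline, 50.5% ± 2.20 in OVA and 46.5% ± 2.57 in DSE mice, a difference of 15.0 points (limma adjusted p = 0.0280). Further along the intron the difference was smaller, with 36.8% ± 1.96 in saline and 46.2% ± 2.88 in OVA mice in the following window (limma adjusted p = 0.0809), and a difference of 1.43 points in the one after it.

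Elsewhere Clic5 was mixed. Of its 42 windows tested, 22 were higher in OVA mice, with a median difference of 0.107 points. Windows from the upstream start to 31738 bp inside the gene were mostly lower in OVA mice, with a lowest difference of -11.9 points in a window of 22 to 48 calls per mouse, and none of them was called. In the upstream flank (chr17:44130001-44131000) the means were 10.3% ± 0.715 in saline, 9.78% ± 1.14 in OVA and 15.7% ± 1.09 in DSE mice, where DSE overlapped neither other group (limma adjusted p = 0.0267 against saline and 0.0642 against OVA). At its second start the windows over the start stayed near 1%, while 1928 bp inside (chr17:44190001-44191000, 22 CpGs) the means were 16.7% ± 3.71 in saline, 26.6% ± 2.54 in OVA and 31.2% ± 5.51 in DSE mice. There OVA exceeded saline by 9.48 points, just under the threshold (limma adjusted p = 0.0929).

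Pdpn had 3 called windows of 17, all intronic and overlapping one another. In the best covered one (chr4:143296501-143297500, 17 CpGs, 2563 bp from the start, at least 512 calls per mouse) the saline mice were at 20.8%, 14.8% and 21.9%, the OVA mice at 28.8%, 31.3% and 32.9%, and the DSE mice at 25.1%, 30.4%, 27.1% and 34.3%. The OVA and DSE mice overlapped each other but not the saline mice, and OVA exceeded saline by 11.6 points (likelihood ratio test adjusted p = 9.68e-16, limma adjusted p = 0.0566). Without the second saline mouse the difference was 9.57 points, under the threshold, and that of chr4:143297001-143298000 went from 10.98 (limma adjusted p = 0.061) to 8.89 points. The window chr4:143296001-143297000 differed by 17.7 points (limma adjusted p = 0.161) but had as few as 26 calls in a mouse. Its call was lost without OVA mouse 2 or 3 or saline mouse 3. Past the 3′ end of the gene, 4 windows were higher in OVA mice by 2.88 to 9.43 points, none past the 10-point threshold, for example 64.6% ± 2.11 in saline and 73.0% ± 2.31 in OVA mice at chr4:143262001-143263000 (limma adjusted p = 0.0622). The start of Pdpn was at 3.82% ± 0.895 in saline and 3.88% ± 1.21 in OVA mice.

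Hopx had 4 called windows of 38 tested, and 29 of the 38 were higher in OVA mice, with a median difference of 3.18 points. The locus also holds Hopxos, Gm15831, Gm51293 and LOC115490297, whose bases cannot be told apart from those of Hopx. The differences rose and fell along the locus (plot of the Hopx locus). They were positive at the upstream start, after the downstream start and at the 3′ end, mostly positive over the distal intron (with -3.29 points at chr5:77101501-77102500), and near or below 0 on the stretch just before the downstream start.

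**Figure D3:**
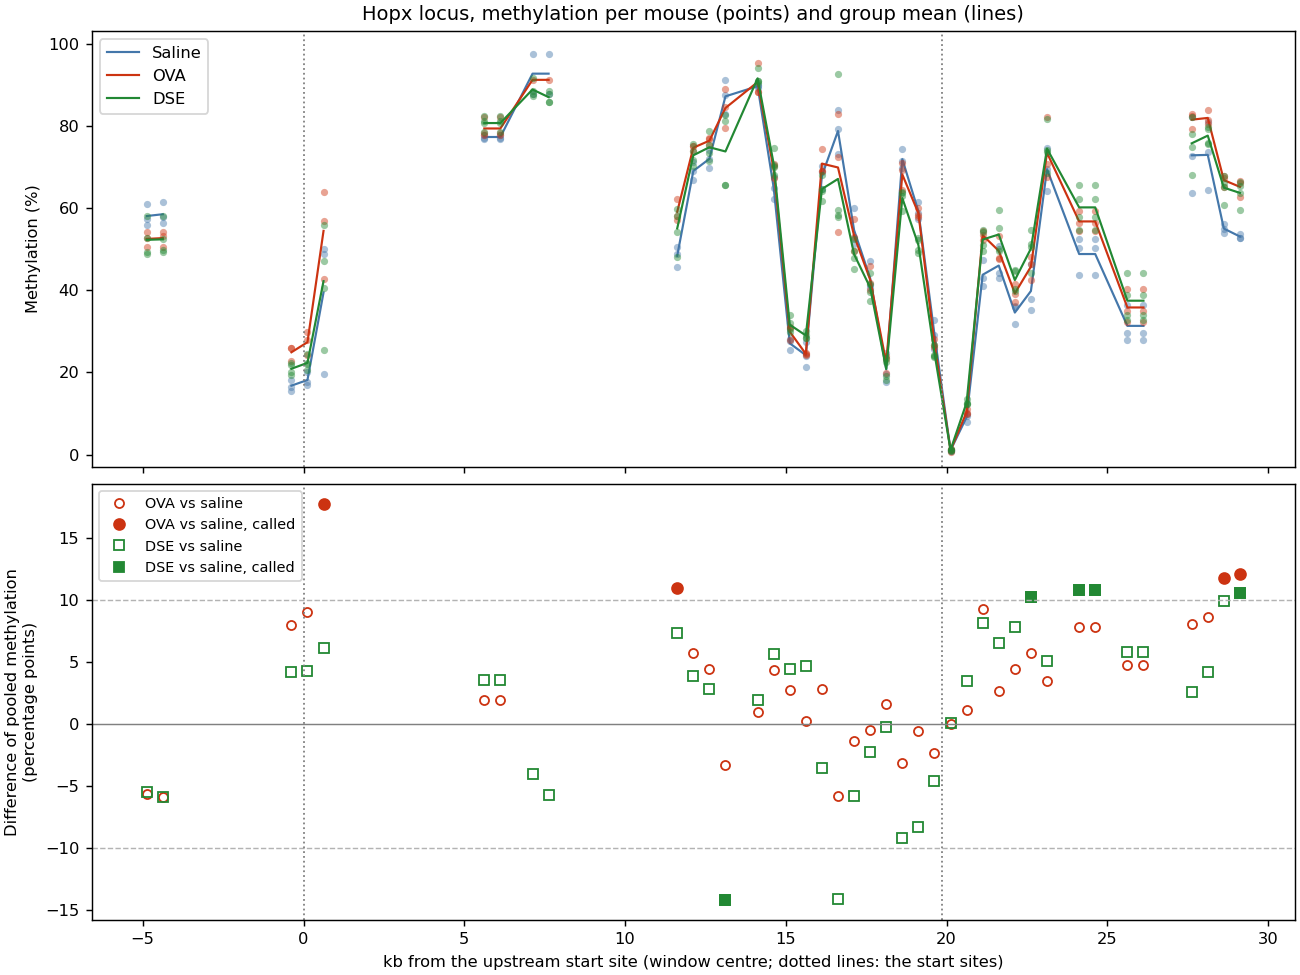
Top: methylation (%) along Hopx against the distance from its upstream start site (kb), with mice as points and group means as lines. Bottom: difference of pooled methylation from saline mice (percentage points) for OVA and DSE mice, filled where called. Windows centred past the 3′ end, 28622 to 29122 bp from the start, are 11.8 to 12.2 points higher in OVA mice, and dotted lines mark the start sites.

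At the 3′ end of Hopx, window chr5:77086001-77087000 (16 CpGs) was at 56.2%, 53.9% and 54.9% in saline, 67.4%, 65.1% and 67.9% in OVA, and 60.8%, 67.8%, 65.2% and 66.0% in DSE mice. This window lies mostly past the gene, which ends at base 77086986. No exposed mouse overlapped the saline mice, and OVA exceeded saline by 11.8 points (likelihood ratio test adjusted p = 5.93e-24, limma adjusted p = 0.0408). The overlapping window past the end of the gene (chr5:77085501-77086500) was at 53.1% ± 0.556 in saline and 65.1% ± 2.17 in OVA mice, 12.2 points apart (limma adjusted p = 0.0413). Windows further into the gene, at chr5:77086501-77087500 and chr5:77087001-77088000, were 8.62 and 8.10 points higher in OVA mice. There the OVA and saline mice overlapped and no call was made (limma adjusted p = 0.174 and 0.327). In the distal intron, chr5:77103001-77104000 was at 48.4% ± 2.54 and 59.1% ± 2.71, 11.04 points apart with limma adjusted p = 0.110, and the call was lost without saline mouse 1 or OVA mouse 1.

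At the upstream Hopx start, the window that holds the bases before the start (chr5:77115001-77116000, 29 CpGs, at least 1660 calls per mouse) was at 16.6%, 15.6% and 18.2% in the saline mice, 22.9%, 26.0% and 25.9% in the OVA mice, and 19.99%, 21.9%, 19.3% and 22.3% in the DSE mice. The DSE mice lay between the other groups and overlapped neither. In the window that overlaps it (chr5:77114501-77115500, 36 CpGs) the means were 18.1% ± 1.70, 27.3% ± 2.91 and 22.3% ± 1.6, OVA exceeded saline by 9.10 points (limma adjusted p = 0.0434), and the DSE mice overlapped the OVA mice. In the first of these windows, OVA exceeded saline by 8.00 points, under the 10-point threshold, with limma adjusted p = 0.0396, while DSE lay 3.80 points below OVA with limma adjusted p = 0.479.

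The next window downstream that shares no base with it (chr5:77114001-77115000) is the one the study listed for Hopx, chosen on these mice, so its values are a description. They were 19.5%, 50% and 48.8% in saline, 42.6%, 63.8% and 56.8% in OVA, and 47.1%, 25.4%, 40.5% and 55.8% in DSE mice, from 108 to 268 calls per mouse. The groups overlapped, with the first OVA mouse below the second and the third saline mouse. The first saline mouse was far below the other two and the second DSE mouse below the other DSE mice. Pooled, OVA exceeded saline by 17.8 points (limma adjusted p = 0.402), and by 6.14 points without saline mouse 1.

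At the downstream Hopx start the average of the windows overlapped between groups, while single windows differed in opposite directions. On average the saline mice were at 24.8%, 21.2% and 25.5%, the OVA mice at 21.6%, 23.5% and 23.6%, and the DSE mice at 22.1%, 23.2%, 23.2% and 25.04%, all overlapping (exact permutation test, two-sided, p = 0.600 for OVA against saline, where 0.1 is the smallest that 3 against 3 allows). Of the windows that hold the start, chr5:77095001-77096000 (52 CpGs) was at 29.2% ± 3.53 in saline, 27.0% ± 1.05 in OVA and 24.7% ± 1.37 in DSE mice, all overlapping. The more CpG-rich window over the start was at 1.05% ± 0.146 in saline, 1.05% ± 0.291 in OVA and 1.126% ± 0.125 in DSE mice. Just inside it (chr5:77094001-77095000, 40 CpGs) the DSE mice, at 12.3% to 13.5%, lay above the saline mice, at 8.02% to 9.94%, and the OVA mice, at 9.84% to 11.03% (2.37 points above OVA, limma adjusted p = 0.447, and 3.53 points above saline, limma adjusted p = 0.0444). Just before it (chr5:77095501-77096500, 17 CpGs) the DSE mice, at 49.1% to 52.8%, lay below the saline mice, at 57.4% to 61.4%, and the OVA mice, at 57.9% to 60.02%. That difference was -7.79 points against OVA (limma adjusted p = 0.226) and -8.33 points against saline (limma adjusted p = 0.0534). Further in (chr5:77093501-77094500, 17 CpGs) the values were 43.8% ± 3.21, 53.4% ± 1.17 and 52.3% ± 2.54, with OVA 9.32 points above saline without overlap (limma adjusted p = 0.0784). Between the start sites, the intron held a low stretch (chr5:77099001-77100000, 15 CpGs) at 24.2% ± 3.12 in saline, 24.5% ± 0.291 in OVA and 28.97% ± 0.742 in DSE mice, where all DSE mice lay above both other groups (limma adjusted p = 0.149 against saline and 0.482 against OVA). The windows 4377 and 4877 bp upstream of the gene went the other way, at 58.5% ± 2.69 in saline and 52.7% ± 1.82 in OVA mice in the first of them, without a call (limma adjusted p = 0.290).

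The remaining members had few calls or none. At Aqp5, 1 of 14 windows was called, one that holds the start and runs into the gene (chr15:99591001-99592000), at 45.7%, 58.5% and 39.2% in saline, 55.8%, 63.4% and 63.7% in OVA, and 45.5%, 66.1%, 47.1% and 55.8% in DSE mice. The groups overlapped (13.3 points, limma adjusted p = 0.253), and without saline mouse 3 the difference was 8.97 points. At Rtkn2, 1 of 52 was called, 1565 bp upstream (chr10:67977501-67978500), at 35.2%, 43.2% and 33.1% in saline and 47.2%, 57.7% and 38.6% in OVA mice, which overlapped (11.8 points, limma adjusted p = 0.207), and 6.10 points without OVA mouse 2. The flanks of Ager had 0 calls of 14, with the partly methylated window 1959 bp upstream at 61.2% ± 2.26 in saline and 68.0% ± 3.37 in OVA mice, without overlap (limma adjusted p = 0.19). Cav1 had 0 of 3, and its window at the start (chr6:17307001-17308000) was at 1.35% ± 0.0920 in saline and 2.13% ± 0.677 in OVA mice, without overlap (limma adjusted p = 0.313).

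The second comparison asked what DSE did in OVA-exposed mice. Between DSE and OVA mice, 192 member windows were tested, of which 0 were higher and 2 lower with DSE, or 0% and 1.04%, beside 0.898% and 0.725% of all windows. By limma 0 were called in either direction, beside 0.293% higher and 0.0617% lower of all. At an unadjusted p under 0.05, 32 were higher and 36 lower in the likelihood ratio test, and 7 higher and 12 lower in limma. All DSE mice lay above all OVA mice in 6 windows (3.12%, against 5.72% of all) and below them in 10 (5.21%, against 4.74%). The median difference was 0.0365 points.

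One of the 2 windows is the listed Hopx window, lower by 11.6 points (limma adjusted p = 0.771), and by 5.67 points without OVA mouse 2 or 6.31 points without DSE mouse 2. The other lies in an Rtkn2 intron (chr10:68013501-68014500, 16 CpGs) and was at 16.8%, 10.9% and 11.3% in saline, 20.6%, 16.8% and 22.9% in OVA, and 3.64%, 11.3%, 12.3% and 10.9% in DSE mice. DSE lay 10.7 points below OVA without overlap (likelihood ratio test adjusted p = 3.24e-05, limma adjusted p = 0.276), and 8.06 points without DSE mouse 1.

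**Figure D4:**
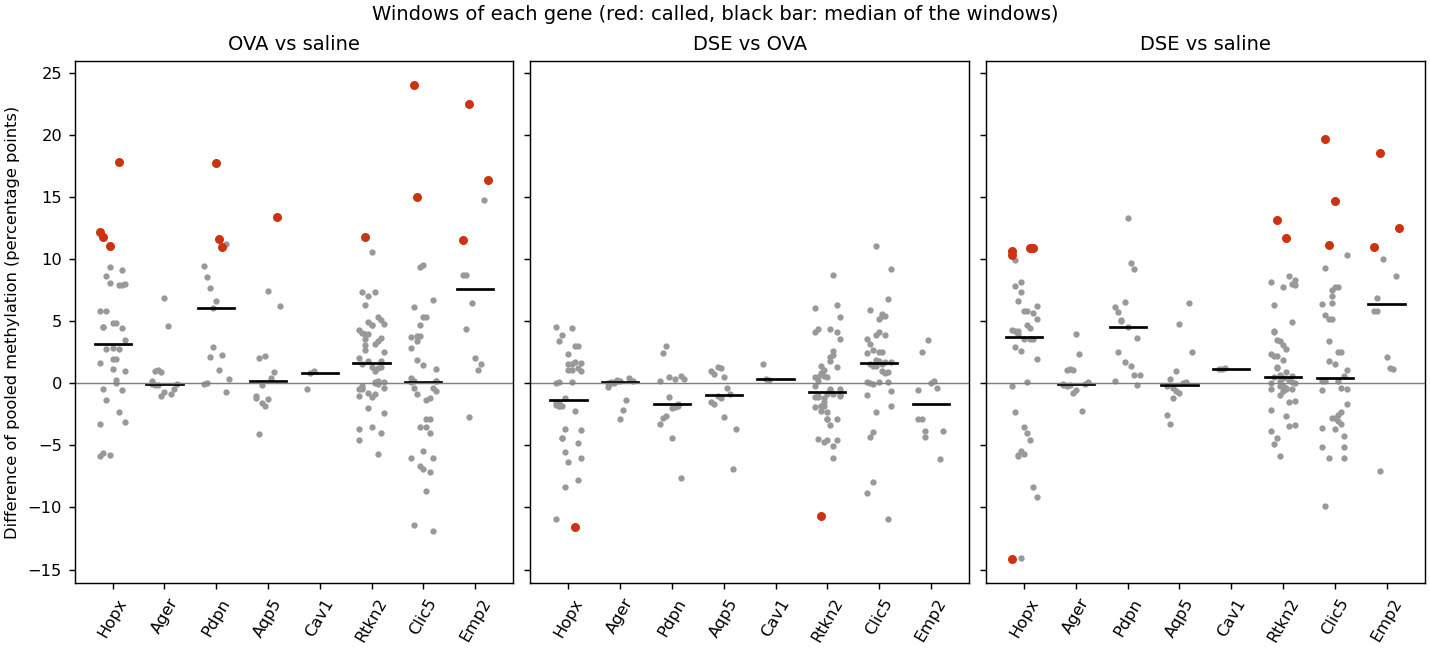
Difference of pooled methylation (percentage points) of each member window by gene, in the 3 comparisons, with called windows in red and the median over the windows of a gene as a bar. There are 14 red points for OVA vs saline, 2 for DSE vs OVA and 13 for DSE vs saline. The first and last comparison share the saline mice.

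The third comparison set DSE mice against saline mice, the same control mice as before. Here 12 of 193 member windows were hyper methylated (6.22%, against 4.95% of all) and 1 hypo methylated (0.518%, against 3.07%). The 12 formed 9 regions in 4 genes, Hopx, Rtkn2, Clic5 and Emp2. By limma 12 were higher (6.22%, against 3.92%) and 1 lower (0.518%, against 2.37%), and 7 of the 12 called windows were among them. The DSE mice lay above all saline mice in 46 windows (23.8%, against 16.1%) and below in 12 (6.22%, against 7.86%). Without the third saline mouse 21 windows were called higher. The window called lower, in the distal Hopx intron (chr5:77101501-77102500), rested on 29 to 65 calls per mouse, at 87.2% ± 4.24 in saline and 73.8% ± 9.46 in DSE mice (limma adjusted p = 0.120), and was not called without either of saline mice 1 and 2 or DSE mice 1 and 4.

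Emp2 and Clic5 held 6 of the 7 windows called by both tests. DSE exceeded saline by 18.6 points in the Emp2 intron (limma adjusted p = 0.0228) and by 12.5 and 11 points in the upstream pair (0.0370 and 0.0464). In Clic5 the intronic pair was higher by 19.6 and 11.1 points (0.0229 and 0.0289), and the window inside its second start by 14.7 points, from 15.8%, 13.6% and 20.8% in the saline mice to 30.4%, 38.4%, 25% and 31.1% in the DSE mice (0.0251). The Clic5 intronic window with 11.1 points fell to 9.97 points without saline mouse 3. The upstream Emp2 window with 11 points fell to 9.65 points without DSE mouse 4. In Hopx the 3′ window past the gene was 10.6 points higher (limma adjusted p = 0.0338), and 9.8 points without DSE mouse 2. Each of these calls was then lost, being under the 10-point threshold. Called Hopx windows of the intron after the downstream start were 10.3 to 10.8 points higher, with limma adjusted p of 0.0710 to 0.104, and 2 of these hold the same calls. Those 2 fell to between 8.19 and 9.95 points without DSE mouse 2, DSE mouse 4 or saline mouse 1. In the remaining one, chr5:77092001-77093000, the DSE and saline mice overlapped. It fell to between 8.14 and 9.9 points without DSE mouse 1 or 2 or saline mouse 1 or 3. Before the downstream start DSE was lower than saline, at 62.4% ± 2.12 against 71.9% ± 2.38 (chr5:77096001-77097000, 9.19 points, limma adjusted p = 0.0466). In Rtkn2 the window 1565 bp upstream was at 50.01% ± 1.48 in DSE and 37.2% ± 5.33 in saline mice, without overlap (13.2 points, limma adjusted p = 0.0997). The Rtkn2 intronic window chr10:68008001-68009000 was 11.7 points higher with overlap (limma adjusted p = 0.145), and 9.52 points without DSE mouse 3. Pdpn had no call. Its best covered intronic window was 9.71 points higher (limma adjusted p = 0.0523), and the thin window chr4:143296001-143297000 was 13.3 points higher without overlap (likelihood ratio test adjusted p = 0.0216, limma adjusted p = 0.213).

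With one value per mouse and locus, the 7 exposed mice could be compared with the 3 saline mice by an exact two-sided permutation test, whose smallest p is 0.0167. The 8 loci were tested without adjustment, as were start-site values of the 8 genes and of single starts (windows within 1000 bp that do not overlap). Locus values are pooled calls, so they also move with where a mouse's calls lie. Windows under 10% held 31.8% to 33.6% of the calls of DSE mice, 34.7% to 35.1% of saline and 35.4% to 37.2% of OVA mice, without overlap. Pdpn was at 28.9%, 29.9% and 28.9% in saline, 31.4%, 34.2% and 34.1% in OVA, and 33.5%, 31.4%, 33.2% and 35.9% in DSE mice, so that all exposed mice were higher (exact p = 0.0167). The Cav1 window was likewise higher in all exposed mice, at 2.41% against 1.35% on average (exact p = 0.0167). Emp2 was at 28.0%, 25.7% and 29.4% in saline, 28.5%, 36.0% and 34.4% in OVA, and 34.4%, 35.6%, 36.9% and 37.3% in DSE mice, with the first OVA mouse among the saline mice (exact p = 0.0333). Hopx averaged 42.7% against 40.0% (exact p = 0.0333). The other 4 loci had p between 0.100 and 0.717. Of the 8 start-site values, 5 were higher in exposed mice. Emp2 was at 14.3% against 9.29% (exact p = 0.0333), Cav1 has the same window as its locus, and the other genes had p between 0.15 and 0.883. The upstream Hopx start alone was at 24.7% against 18.3%, without overlap (exact p = 0.0167). Lower in exposed mice, with overlap, were the first Clic5 start (43.6% against 47.0%, exact p = 0.0667) and the downstream Hopx start (23.2% against 23.9%, 0.567). The second Clic5 start was at 2.64% against 2.14%, with overlap (exact p = 0.05). With 2 saline mice the smallest p is 0.0556, so none of these passes 0.05 when a saline mouse is left out. Against saline mice alone, the DSE mice were all higher at 5 of 8 loci by pooled calls (Hopx, Pdpn, Cav1, Clic5 and Emp2, exact p = 0.0571 each, the smallest that 4 against 3 allows), beside 34.9% of all 37011 RefSeq loci. OVA mice were all above saline mice at 2 of 8 loci (17.3% of all), the exposed mice at 2 of 8 (10.5%), and DSE mice all above OVA mice at 0 of 8 (25.7%).

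With the unweighted mean over windows, which does not depend on the spread of calls, the DSE mice were all above the saline mice at 4 of 8 loci (22.4% of all loci), the OVA mice at 5 (24.1%) and the exposed mice at 3 (14%), and DSE above OVA mice at 1 (5.4%). On this scale Pdpn was 5.05 points higher in exposed mice (exact permutation p = 0.0167), Emp2 8.74 points (0.0167), Hopx 2.97 points (0.0333) and Rtkn2 1.17 points (0.0333). DSE minus OVA was above 0 at 8 of 8 loci by pooled calls and at 3 of 8 by the unweighted mean, for example 3.10 and -1.04 points at Emp2. The mean of all windows was itself higher in every exposed mouse (51.7% to 52.8%) than in any saline mouse (50.9% to 51.5%).

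The pooled locus values of Hopx and Emp2 went together over the 10 mice (Pearson r = 0.909), as did those of Pdpn and Emp2 (r = 0.831), while Aqp5 and Hopx had r = 0.0568. These mice share groups, so this is a description. Of 19349 RefSeq genes with at least 5 windows, those whose pooled level was most like that of Hopx over the 10 mice were Gm41302 (r = 0.974), Trpm1 (0.972), Tafa1 (0.972), Hoxc6 (0.967) and Gm30763 (0.966).

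Other AT1 genes and regulators came from lists chosen with earlier results of these data known, and are set beside the 4.75% higher and 2.56% lower of all windows. Of 340 windows of 14 further AT1 genes, 19 were higher (5.59%) and 9 lower (2.65%) in OVA mice, most of them in Lmo7 (6 higher, 3 lower), Icam1 (4 and 2) and Spock2 (1 and 2). Of 307 windows of 9 regulators of AT1 cells, 9 were higher (2.93%) and 2 lower (0.651%), among them Tead1 (3 and 1) and Wwtr1, the TAZ coactivator (3 and 0). AT2 markers had 6 higher (4.26%) and 4 lower (2.84%) of 141, and airway epithelium markers 2 higher (2.47%) and 0 lower of 81. Only 6 of the 8 AT2 genes and 4 of the 6 airway genes had windows. Etv5 alone held 75 of the 141, and Dnah5 39 of the 81. Differences between lists were not tested.

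Markers of other cell types moved in the same mice. Endothelial markers had 24 of 157 windows higher (15.3%) and 3 lower in OVA mice, led by Pecam1 and Tek (7 each) and Kdr (4). The 3 lower ones were all in Erg, named after its values were seen. Their mean level was 46.5% to 47.4% in saline, 49.2% to 50.9% in OVA and 48.5% to 50.1% in DSE mice over 71 windows. Leukocyte markers had 25 of 139 windows lower (18.0%) and 4 higher, led by Ptprc, which encodes CD45 (13 of 22 lower), and Spi1 (6 lower, 3 higher). The calls did not extend to every gene of the list. Cd3e and Cd3g, named after their values were seen, had 0 calls, with median differences of 5.34 and -0.663 points. The mean level of the leukocyte markers was 48.2% to 48.5% in saline, 44.8% to 45.7% in OVA and 44.2% to 46.1% in DSE mice over 67 windows. DSE against saline gave 25 lower and 4 higher leukocyte windows of 140, and 21 higher (13.4%) and 7 lower (4.46%) endothelial windows of 157, with the 7 lower ones all in Erg. DSE against OVA gave 0 calls in either list. The mean of the 91 member windows was 42.9% to 44.4% in saline, 45.3% to 46.9% in OVA and 45.01% to 46.6% in DSE mice, and that of all 210918 windows 50.9% to 51.5%, 51.9% to 52.8% and 51.7% to 52.8%. The part of a changed cell mixture in the member results was not tested.

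**Figure D5:**
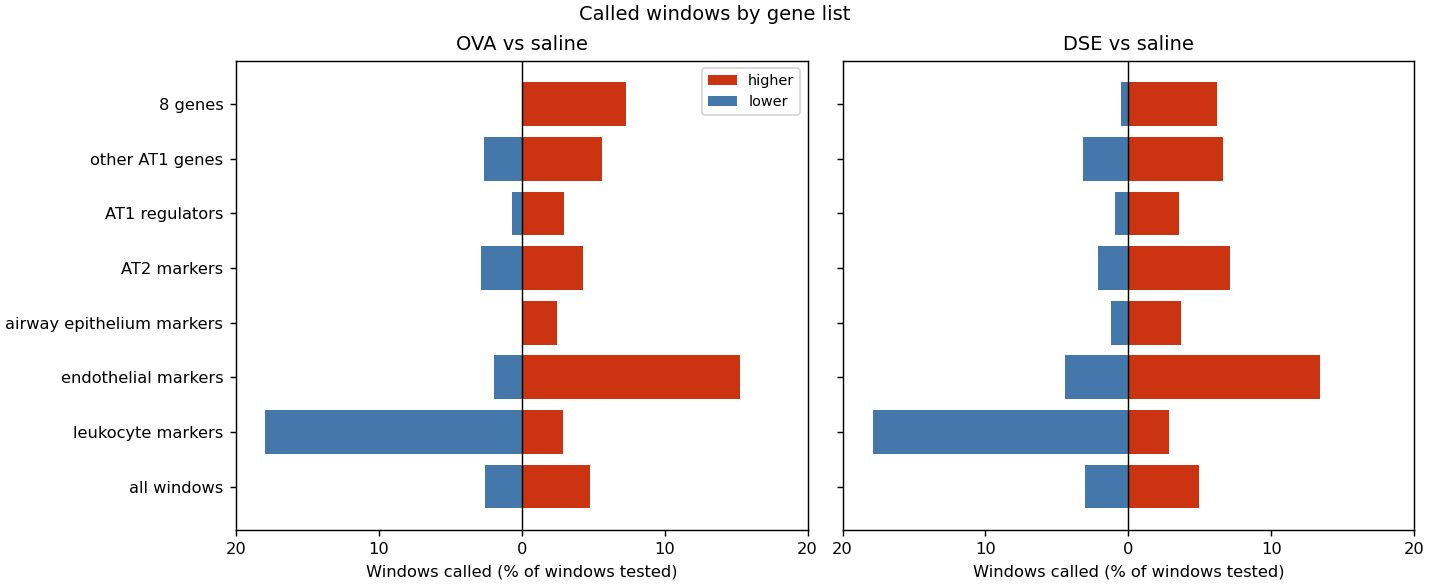
Share of tested windows (%) called higher (right) or lower (left) in OVA vs saline and DSE vs saline mice, for the 8 genes, the other lists and all windows. The 8 genes had 7.29% higher and 0% lower in OVA vs saline, endothelial markers 15.3% higher, and leukocyte markers 18.0% lower.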

How the data were processed

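Methyl-seq calls of lung DNA from 3 saline, 3 OVA and 4 DSE mice were used. The deposited values are counts per window of 1000 bp (step 500 bp), without normalization: CpG calls, methylated and unmethylated, at least 10 per mouse. Per the labels, the authors used cutadapt 1.10 for trimming, Bismark 0.19.0 for mapping (build mm10) and methylKit 1.0.0 for summing, while the study's methods name other versions. RNA-seq was not analysed here.

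A mouse needed 20 calls in a window, and a group 2 such mice. Main calls came from the likelihood ratio test of a logistic model over all windows of the mice compared. limma 3.58.1 (R 4.3.3) used M-values with a pseudocount of 1 in 1 fit of all mice. Single values had exact permutation tests with scipy 1.17.1. Scripts were tested on simulated data. Genes, start sites and sequences came from RefSeq on GRCm38, and 0 windows lay past a chromosome end. The members and lists were chosen with earlier results of these data known. Named were all called windows per gene and comparison where there were 5 or fewer, at most 3 genes of each other list, and the 5 genes most like Hopx. Replicate libraries differed by more than counting noise (mean chi-square 2.59 to 3.66 per window), so each mouse was kept as 1 replicate. Median depth was 343 to 504 calls per window and mouse, and intervals cover counting error only. Whether same-numbered mice are related is not given in the sources used here.
Alternatives were an F test with overdispersion, limma as the call, a minimum of 50 calls, 20 points, 10 kb added to the flank, windows that do not overlap, a replicate block and leaving out each mouse.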

Additional observations from a re-analysis of the deposited data

Results flagged for a closer look

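Of 42 sets of the 4 DSE mice tested, 4 had a mouse whose gap to its nearest neighbour, as a share of the group's range, was above the 95% critical value of Dixon's test, where chance gives about 1 in 20. At the Aqp5 locus the second DSE mouse was at 21.5% and the others at 18.2% to 18.8% (gap share 0.833), and at the Aqp5 start site it was at 15.8% against 8.40% to 9.24% (0.886). At the first Clic5 start the fourth DSE mouse was at 40.4% against 45.1% to 45.7% (0.876). In the Rtkn2 intronic window chr10:68013501-68014500 the first DSE mouse was at 3.64% against 10.9% to 12.3% (0.847).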

How the results depend on the processing

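Counts of member windows depended on the test and on the size threshold. In OVA vs saline, 14 windows were higher, against 0 with an F test with overdispersion, 0 with limma at an adjusted p under 0.01 and 10 points, 8 with limma at 0.05, 2 with a threshold of 20 points and 9 among windows that do not overlap. The 0 lower windows became 2 with 10 kb added. Between DSE and OVA mice the 2 lower windows became 0 with the F test, either limma setting or 20 points, and 1 without overlapping windows. In DSE vs saline the 12 higher windows became 0 with the F test, limma at 0.01 or 20 points, and 7 without overlap, and the 1 lower window became 0 with the F test, limma at 0.01, 20 points, a minimum of 50 calls, no overlap or the replicate block, and 4 with 10 kb added. The cause was not tested. At an unadjusted p under 0.05 the F test had 32 higher and 7 lower windows for OVA against saline, 5 and 10 for DSE against OVA, and 39 and 4 for DSE against saline.

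With 1 mouse left out at a time there were 12 to 19 higher and 0 to 2 lower windows in OVA vs saline (2 without OVA mouse 3 and 1 without saline mouse 1), 0 to 1 and 1 to 2 in DSE vs OVA (1 higher without DSE mouse 4), and 11 to 21 and 0 to 2 in DSE vs saline (21 without saline mouse 3). With a replicate block, OVA vs saline had 13 higher windows, and the Rtkn2 window upstream of the gene (likelihood ratio test adjusted p = 0.0112) and the lower Hopx window of DSE vs saline (0.04) were lost. Deviations of same-numbered mice correlated at -0.0273 to 0.0785. With so few mice per group and no differently numbered mice set beside them, these values cannot decide whether the numbers pair the mice. DSE vs saline had 12 higher windows with limma at 0.05. The Rtkn2 locus reached an exact permutation p of 0.0333 in exposed vs saline mice with an unweighted mean over windows, and the other locus and start-site values kept their side of 0.05 in all settings but those leaving out a saline mouse. No called window and no exact permutation p under 0.05 turned to the other direction. Locus differences above 0.05 could change sign with the weighting. DSE minus OVA at Emp2, for example, was 3.10 points by pooled calls and -1.04 by the unweighted mean. Depth limits the thin windows: in the Pdpn window chr4:143296001-143297000 the second saline mouse had 26 calls, with a Wilson 95% interval of 16.5% to 49.99%.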
